A study of Mus musculus with 3 samples.

Results

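The genes described here are 38 genes of the DNA replication machinery, chosen by name and grouped by role. They comprise 6 subunits of the replicative helicase, 4 origin recognition and licensing factors, 6 helicase activation factors, 6 polymerase and primase subunits, 5 genes of the sliding clamp and its loader, 4 lagging strand and single strand binding genes, 5 nucleotide synthesis genes, and Ung and Uhrf1. All 38 were found among the 57561 rows of the expression table, each in 1 row.

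The cells were myeloid-derived suppressor cells, or MDSCs, a mixed population of immature myeloid cells known to dampen T cell responses, grown from mouse femoral marrow with GM-CSF and IL-6 for 4 days. The groups were lnc57Rik KO (genotype lnc57Rik-/-), lncGM1082 KO (genotype lncGM1082-/-) and WT (wild type). All carry the strain label C57BL/6, and the culture was the same for all. lnc57Rik and lncGM1082 are long noncoding RNAs. Each genotype was read in 1 library of total RNA. The age of the mice and any pooling of mice were not given in the sources used here, and the protocol text does not mention the lncGM1082 KO mice. With 1 library per genotype no difference has a replicate check, and no test was made.

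DNA replication begins when the origin recognition complex, Cdc6 and Cdt1 load the Mcm2 to Mcm7 ring onto DNA. Cdc45 and the GINS complex join the ring to make the active helicase. DNA polymerase alpha and primase then start each new strand, and polymerases delta and epsilon extend the strands on the PCNA clamp. Most of these genes are transcribed ahead of and during S phase under E2F transcription factors, and their transcripts are abundant in dividing marrow progenitors and scarce in terminally differentiated neutrophils.

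Levels are FPKM, fragments scaled to exon length and library size. The libraries rest on 17593426 fragments for lnc57Rik KO, 18280416 for lncGM1082 KO and 18485076 for WT. The labelled cell type was checked on its markers. S100a9, an abundant calprotectin subunit of neutrophils and MDSCs, had 4509 FPKM in lnc57Rik KO, 2833 in lncGM1082 KO and 4521 in WT. Itgam, the CD11b chain, had 31.0, 25.1 and 36.5 FPKM in the same order, and Ly6g, the granulocytic Gr-1 antigen, had 21.1, 33.9 and 73.4 FPKM. None of the 10 MDSC and myeloid markers was at 0 in any library. Arhgap33os, whose RefSeq synonym is Gm1082, had 0, 0.0620 and 0.0204 FPKM, which is too low to check the lncGM1082 KO label. No symbol in the table ends in 57Rik, so the lnc57Rik KO label could not be checked.

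The replication genes stood higher in lnc57Rik KO than in WT in every role group, and in lncGM1082 KO they stood near WT. Summed over the 38 genes, the level was 443.5 FPKM in lnc57Rik KO, 242.1 FPKM in lncGM1082 KO and 238.9 FPKM in WT. This sum was 0.136% of all FPKM in lnc57Rik KO, 0.0746% in lncGM1082 KO and 0.0721% in WT. The FPKM ratio of lnc57Rik KO to WT was above 1 for all 38 genes, with a range from 1.01 for Pola2 to 2.82 for Ung. Its 95% interval lay above 1 for 36 of them, the exceptions being Pola2 and Rfc4. These intervals are exact binomial (Clopper-Pearson) intervals from the fragments of both libraries and cover counting error only. They were not computed over all rows, so the count of 36 has no background share beside it. In bulk RNA, fewer cells of a type and less RNA per cell cannot be told apart.

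Differences across genes are given as the log2 fold of FPKM after adding a pseudocount of 1, for rows with a mean of at least 1 FPKM over the 3 libraries. This filter kept 37 of the 38 genes and left out Ung. A gene was called higher at a log2 fold of at least 0.5. Between lnc57Rik KO and WT the 37 genes had a median log2 fold of 0.75, with a range from 0.01 to 1.23, and all 37 were above 0, or 36 after either rescaling of the libraries that was tried, with Pola2 then below 0. Of these, 30 were called higher and 0 lower, while 12.7% of all 22202 rows were called higher and 7.90% lower. Among the 12041 rows with an Ensembl identifier, 13.6% were called higher. The median over all rows was 0.07, and 58.5% of rows were above 0. At a log2 fold of at least 1 stood 8 of the 37 genes, against 3.39% of all rows. These 8 were Mcm2, Mcm5, Mcm6, Mcm7, Pola1, Rrm2, Dut and Uhrf1. The genes nearest the 0.5 line were Gins2 at 0.50 and Pole at 0.51 above it, and Rpa2 at 0.43 and Rfc5 at 0.41 below it. The 0.5 line was set for this description and has no biological standing. The same 12.7% of all rows is the background for the role group counts below.

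**Figure D1:**
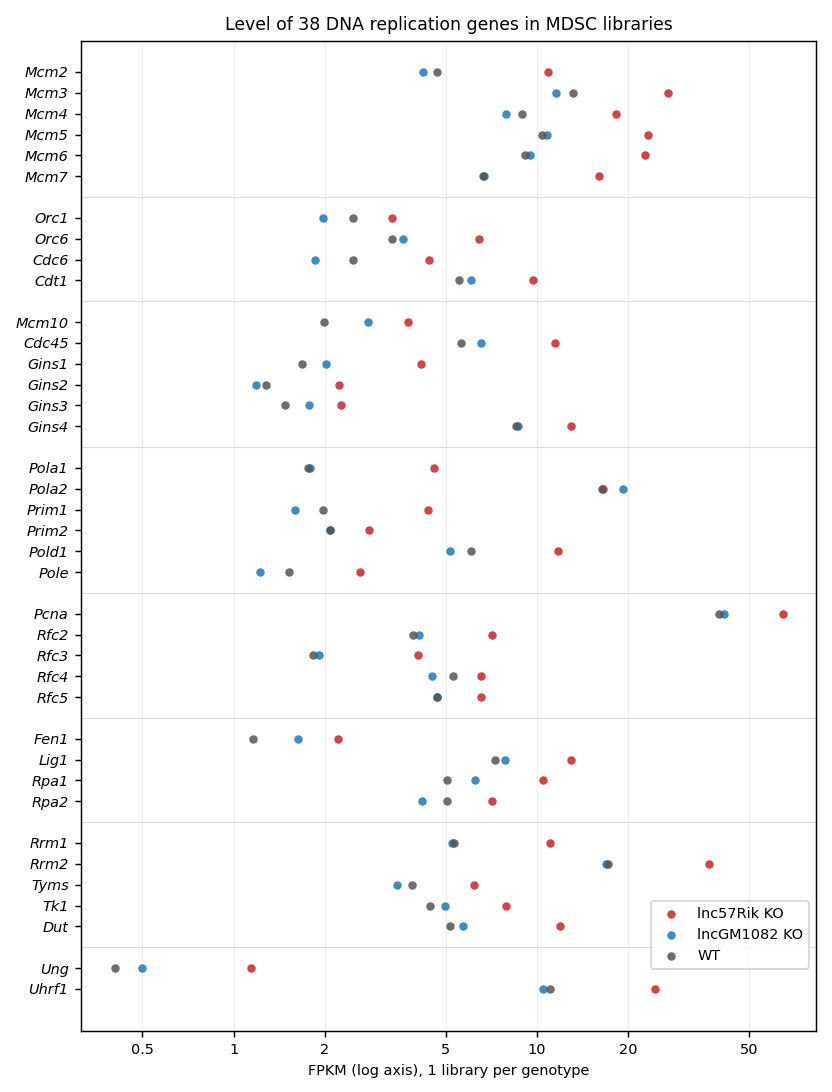
Level of each of the 38 DNA replication genes in FPKM on a log axis, with 1 point per library and the genes grouped by role (helicase, origin, activation, polymerases and primase, clamp and loader, lagging strand, nucleotide synthesis, Ung and Uhrf1). The lnc57Rik KO point lies to the right of both others for every gene but Pola2, where lncGM1082 KO is highest at 19.2 FPKM.

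Between lncGM1082 KO and WT the 37 genes had a median log2 fold of 0.01, with a range from -0.29 for Cdc6 to 0.33 for Mcm10. Of the 37, 22 were above 0 and 15 below, and 18 were above 0 after scaling by the median of ratios. None was called higher and none lower, against 5.93% and 4.73% of all 22202 rows. By counting error alone the ratio differed from 1 for 10 of the 38 genes. It was above 1 for Mcm10, Cdc45, Pola2 and Rpa1, and below 1 for Mcm3, Mcm4, Cdc6, Pold1, Pole and Rpa2. The share of all rows whose interval leaves out 1 was not computed. The count of 10 therefore cannot be set against a background. Both comparisons use the same WT library, so they are not independent of each other.

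Between the knockouts the pattern followed from these values. The median log2 fold of lnc57Rik KO over lncGM1082 KO was 0.70, and 36 of 37 genes were above 0. Here 30 of the 37 genes were called higher, against 12.0% of all rows, and 11 stood at or above 1, against 3.07% of all rows. All 6 helicase subunits were among the 11. Pola2 ran the other way, with a log2 fold of -0.21 and a ratio of 0.859 (95% interval 0.813 to 0.907).

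**Figure D2:**
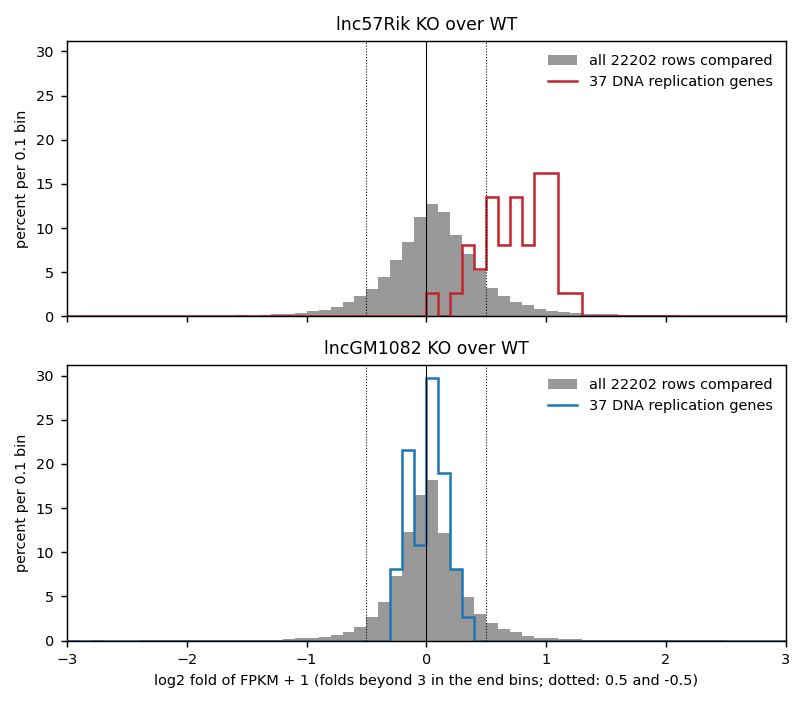
Distribution of the log2 fold of FPKM + 1 in bins of 0.1, as percent of rows, for lnc57Rik KO over WT (top) and lncGM1082 KO over WT (bottom). Grey bars are all 22202 rows compared and the coloured outline the 37 DNA replication genes, which are centred on 0.75 in the upper panel and on 0.01 in the lower one.

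The replicative helicase is a ring of Mcm2, Mcm3, Mcm4, Mcm5, Mcm6 and Mcm7, which unwinds DNA ahead of the fork. All 6 subunits were called higher in lnc57Rik KO against WT, and their summed level was 118.3 FPKM in lnc57Rik KO, 50.7 FPKM in lncGM1082 KO and 53.0 FPKM in WT. Mcm6 (chr1:128331590-128359664, minus strand, GRCm38) had 22.7 FPKM in lnc57Rik KO, 9.53 in lncGM1082 KO and 9.15 in WT. Its log2 fold over WT was 1.23 in lnc57Rik KO, the highest of the 37 genes, and its FPKM ratio was 2.48 (95% interval 2.29 to 2.70). The ratio of lncGM1082 KO to WT was 1.04 (0.944 to 1.15). lnc57Rik KO was also highest for the other subunits, while lncGM1082 KO was above WT for Mcm5 and Mcm7 and below it for Mcm2, Mcm3 and Mcm4. Mcm7 (chr5:138164583-138172422, minus strand) had 16.1 FPKM in lnc57Rik KO, 6.71 in lncGM1082 KO and 6.65 in WT. Mcm5 (chr8:75109569-75128439, plus strand) had 23.3, 10.8 and 10.4 FPKM in that order. Mcm2 (chr6:88883474-88898780, minus strand), the subunit that also binds histones at the fork, had 10.9, 4.21 and 4.70 FPKM. Mcm3 (chr1:20802968-20820312, minus strand) was the most abundant subunit, with 27.0 FPKM in lnc57Rik KO, 11.5 in lncGM1082 KO and 13.2 in WT. Mcm4 (chr16:15623897-15637400, minus strand) had 18.3, 7.90 and 8.94 FPKM. Mcm3 and Mcm4 were the subunits whose lncGM1082 KO to WT ratio had an interval below 1, at 0.876 (0.796 to 0.965) and 0.883 (0.784 to 0.995).

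The subunits kept the same order of FPKM in all 3 libraries, Mcm3 above Mcm5, Mcm6, Mcm4, Mcm7 and Mcm2. The highest subunit stood 2.47 times above the lowest in lnc57Rik KO, 2.74 times in lncGM1082 KO and 2.81 times in WT. FPKM is scaled to the length of all exons of a gene, which was 6956 bases for Mcm2 and 3589 for Mcm4. In WT these subunits rest on 604 and 593 fragments, so the order and the spread depend on the length used. Transcripts of a ring also need not be present in equal amounts for their proteins to be.

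Of the 8 genes with a log2 fold of at least 1, 5 hold a match in their promoter to the E2F pattern, the binding motif of the factors that drive S phase transcription, namely Mcm5, Mcm6, Mcm7, Pola1 and Uhrf1, while Mcm2, Rrm2 and Dut hold none. The letters around the match are shown for Mcm5, Mcm6 and Pola1, the genes whose match and its flanks lie wholly upstream of the start and outside the span of the gene in the table. The pattern was any of TTTCCCGC, TTTCGCGC, TTTGCCGC and TTTGGCGC, searched on both strands in RefSeq windows (GRCm38.p6) from 250 bases before to 50 bases after the gene start. The stretches run 5′ to 3′ on the strand of the gene and lie upstream of the start, and capitals mark the matched bases. Matches to TTTGGCGC and TTTCGCGC on opposite strands can share bases, as they do in Mcm5 and Mcm6.
Mcm5, chr8:75109340-75109383, plus strand: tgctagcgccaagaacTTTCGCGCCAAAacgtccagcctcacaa
Mcm6, chr1:128359729-128359831, minus strand: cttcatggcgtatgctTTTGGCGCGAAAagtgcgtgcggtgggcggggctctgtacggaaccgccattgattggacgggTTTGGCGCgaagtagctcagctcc
Pola1, chrX:93632270-93632309, minus strand: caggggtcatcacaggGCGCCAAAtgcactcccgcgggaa
The Mcm5 stretch holds 2 overlapping matches, whose first bases lie 153 and 149 bases before the start. The Mcm6 stretch holds 3 matches between 110 and 47 bases before the start, and the Pola1 stretch holds 1 match at 138 bases before it.

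A RefSeq window was matched for 31 of the 38 genes, with 36 windows in all. It was not matched for Mcm4, Gins1, Gins2, Gins4, Prim2, Pole and Rfc2. The E2F pattern was in 13 of the 36 windows, or 36.1%, against 2.26% of all 32851 RefSeq windows and 4.00% of the 10365 windows of genes compared here. The 13 genes were Mcm3, Mcm5, Mcm6, Mcm7, Orc1, Cdc6, Cdt1, Gins3, Pola1, Pold1, Rfc3, Lig1 and Uhrf1. Their median log2 fold of lnc57Rik KO over WT was 0.84, and it was 0.71 for the 17 genes that had a window without a match and passed the filter. The range was 0.32 to 1.23 among the 13 and 0.01 to 1.07 among the 17, so the groups overlapped over most of their span. A CCAAT box, the NF-Y motif CCAAT, was in 58.3% of the windows of the replication genes, in 37.4% of all windows and in 37.5% of the windows of genes compared here. The CHR motif of genes expressed late in the cell cycle, TTTGAA or TTCGAA on either strand, was in 16.7% of the windows of the replication genes, in 19.2% of all windows and in 14.4% of the windows of genes compared here. A GC box, GGGCGG, was in 72.2% of the windows of the replication genes, in 35.7% of all windows and in 62.4% of the windows of genes compared here. In the related lists below, the E2F share ran from 6.67% for other nucleotide supply genes to 34.6% for E2F factors and S phase regulators. These matches describe letters and are not evidence of binding.

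**Figure D3:**
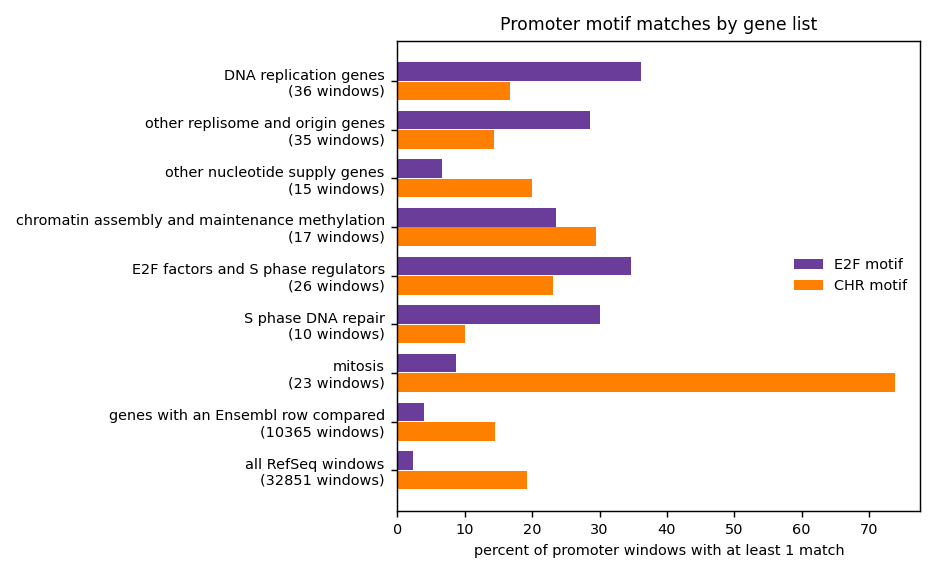
Percent of RefSeq promoter windows that hold at least 1 match to the E2F pattern (purple) or to the CHR motif (orange), for the DNA replication genes, 6 related gene lists, the genes compared and all windows. The replication genes reach 36.1% for E2F and 16.7% for CHR, and the mitosis list 8.70% and 73.9%. The E2F share is 34.6% for E2F factors and S phase regulators, 30.0% for S phase DNA repair and 28.6% for other replisome and origin genes. It is 23.5% for chromatin assembly and maintenance methylation and 6.67% for other nucleotide supply genes.

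Origin recognition and licensing factors mark origins and load the helicase. Of 4, 3 were called higher in lnc57Rik KO against WT, with a median log2 fold of 0.68. Orc6, a subunit of the origin recognition complex, had 6.47 FPKM in lnc57Rik KO, 3.63 in lncGM1082 KO and 3.33 in WT. Cdt1, which brings the helicase to origins, had 9.72, 6.05 and 5.53 FPKM in that order. Cdc6, the loading ATPase, had 4.42, 1.85 and 2.48 FPKM. Cdc6 thus differed between all 3 libraries beyond counting error, with ratios of 1.78 (95% interval 1.52 to 2.10) for lnc57Rik KO to WT and 0.746 (0.611 to 0.909) for lncGM1082 KO to WT. Orc1, the ATPase subunit of the origin recognition complex, had 3.33 FPKM in lnc57Rik KO, 1.97 in lncGM1082 KO and 2.47 in WT, and its log2 fold of 0.32 over WT missed the line.

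Helicase activation factors turn the loaded ring into a moving helicase. Of 6, 5 were called higher in lnc57Rik KO against WT, with a median log2 fold of 0.61. Cdc45, the cofactor that stays with the moving helicase, had 11.5 FPKM in lnc57Rik KO, 6.56 in lncGM1082 KO and 5.62 in WT. Its ratio to WT was 2.05 (1.80 to 2.33) in lnc57Rik KO and 1.17 (1.01 to 1.35) in lncGM1082 KO. Mcm10, which helps to open the origin, had 3.77, 2.77 and 1.99 FPKM, and its ratio of 1.39 (1.19 to 1.63) for lncGM1082 KO to WT went with the highest log2 fold of that comparison. The GINS complex has 4 subunits. Gins1 had 4.16 FPKM in lnc57Rik KO, 2.02 in lncGM1082 KO and 1.68 in WT, on 111, 56 and 47 fragments. Gins4 was the most abundant, with 12.98, 8.64 and 8.54 FPKM. Gins2 had 2.23, 1.19 and 1.28 FPKM, and Gins3 had 2.27, 1.78 and 1.48 FPKM with a log2 fold of 0.40 in lnc57Rik KO against WT. The order Gins4, Gins1, Gins3 and Gins2 was the same in all 3 libraries.

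The polymerase and primase subunits varied most among themselves. Of 6, 4 were called higher in lnc57Rik KO against WT, with a median log2 fold of 0.68 and a range from 0.01 to 1.02. Pola1, the catalytic subunit of polymerase alpha (chrX:93304767-93632155, minus strand), had 4.58 FPKM in lnc57Rik KO, 1.78 in lncGM1082 KO and 1.76 in WT. Its ratio to WT was 2.61 (2.27 to 3.003) in lnc57Rik KO and 1.01 (0.858 to 1.20) in lncGM1082 KO. Pola2, the regulatory subunit of the same polymerase, had 16.5 FPKM in lnc57Rik KO, 19.2 in lncGM1082 KO and 16.4 in WT. Its ratio to WT was 1.01 (0.952 to 1.07) in lnc57Rik KO and 1.17 (1.11 to 1.24) in lncGM1082 KO, and it is the 1 gene of the 38 for which lnc57Rik KO was not the highest library. Pola2 is also the 1 gene of the 38 whose position in the table was not the one of GENCODE M21. Its values did not come out as whole fragments, nor did those of Cdc45 and Rfc4. The exon length used for these genes may thus not be the one behind their FPKM. Their fragments were rounded, and both fragments and intervals are approximate.

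Prim1, the primase that makes the RNA primer, had 4.38 FPKM in lnc57Rik KO, 1.598 in lncGM1082 KO and 1.97 in WT. Prim2, the large primase subunit, had 2.80, 2.08 and 2.08 FPKM, and its log2 fold of 0.31 over WT in lnc57Rik KO missed the line. Pold1, the catalytic subunit of the lagging strand polymerase delta, had 11.7 FPKM in lnc57Rik KO, 5.19 in lncGM1082 KO and 6.08 in WT. Pole, the catalytic subunit of the leading strand polymerase epsilon, had 2.61, 1.23 and 1.53 FPKM. For Pold1 and Pole the ratio of lncGM1082 KO to WT was 0.854 (0.753 to 0.968) and 0.803 (0.677 to 0.9505). Within the polymerase alpha and primase complex the order of subunits differed between the 3 libraries, although Pola2 was highest in each.

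The sliding clamp tethers polymerases to DNA, and the clamp loader opens and closes it. Pcna, the clamp (chr2:132249162-132253314, minus strand), was the most abundant of the 38 genes, with 64.9 FPKM in lnc57Rik KO, 41.5 in lncGM1082 KO and 40.0 in WT. Its ratio to WT was 1.62 (1.53 to 1.72) in lnc57Rik KO and 1.04 (0.973 to 1.11) in lncGM1082 KO. The pseudogene row Pcna-ps2 had 0.226, 0.218 and 0.215 FPKM in the same order. Of the loader subunits, Rfc3 had 4.06 FPKM in lnc57Rik KO, 1.91 in lncGM1082 KO and 1.83 in WT, and Rfc2 had 7.13, 4.09 and 3.91 FPKM. Rfc5 and Rfc4 missed the line. Rfc5 had 6.55, 4.67 and 4.67 FPKM, a log2 fold of 0.41 for lnc57Rik KO over WT. Rfc4 had 6.56, 4.53 and 5.29 FPKM, with a ratio to WT of 1.24 (0.992 to 1.55) in lnc57Rik KO. The 5 genes had a median log2 fold of 0.69 in lnc57Rik KO against WT, and 3 were called higher.

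Lagging strand synthesis needs the single strand binding complex RPA, removal of primer flaps and sealing of nicks. Rpa1, the largest RPA subunit, had 10.5 FPKM in lnc57Rik KO, 6.24 in lncGM1082 KO and 5.04 in WT, with ratios to WT of 2.07 (1.86 to 2.31) and 1.24 (1.10 to 1.39) in the knockouts in that order. Rpa2, a smaller subunit of the same complex, had 7.14, 4.17 and 5.06 FPKM, with ratios to WT of 1.41 (1.21 to 1.65) and 0.823 (0.688 to 0.984). The RPA subunits thus stood on opposite sides of WT in lncGM1082 KO. Lig1, the ligase that joins Okazaki fragments, had 12.9 FPKM in lnc57Rik KO, 7.88 in lncGM1082 KO and 7.26 in WT. Fen1, the flap nuclease, had 2.21, 1.63 and 1.16 FPKM on 94, 72 and 52 fragments. Its ratio of 1.4001 for lncGM1082 KO to WT, the highest of the 38, had an interval from 0.967 to 2.04. Of these 4 genes, 3 were called higher in lnc57Rik KO against WT, with a median log2 fold of 0.66.

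The nucleotide synthesis genes supply deoxynucleotides. All 5 were called higher in lnc57Rik KO against WT, with a median log2 fold of 0.93, and their summed level was 74.1 FPKM in lnc57Rik KO, 36.3 FPKM in lncGM1082 KO and 36.0 FPKM in WT. Rrm2, the regulated small subunit of ribonucleotide reductase (chr12:24708241-24714146, plus strand), had 37.05, 16.9 and 17.2 FPKM in that order. Its ratio to WT was 2.16 (1.99 to 2.34) in lnc57Rik KO and 0.985 (0.895 to 1.08) in lncGM1082 KO. Rrm1, the large subunit, had 11.1, 5.24 and 5.34 FPKM. The Rrm2 to Rrm1 ratio of FPKM was 3.35 in lnc57Rik KO, 3.23 in lncGM1082 KO and 3.21 in WT, so both subunits moved by nearly the same factor. Dut, which breaks down dUTP and so keeps uracil out of DNA, had 11.9 FPKM in lnc57Rik KO, 5.70 in lncGM1082 KO and 5.19 in WT. Tk1, the thymidine salvage kinase of dividing cells, had 7.92, 4.99 and 4.45 FPKM. Tyms, thymidylate synthase, had 6.21, 3.45 and 3.87 FPKM and the lowest log2 fold of the 5, at 0.56.

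Ung and Uhrf1 act on the newly made strand. Ung removes uracil from DNA. It had 1.14 FPKM in lnc57Rik KO, 0.5002 in lncGM1082 KO and 0.406 in WT on 110, 50 and 41 fragments, which gave the widest interval of the 38 genes for lnc57Rik KO to WT, 1.95 to 4.14 around 2.82. Its mean was under 1 FPKM, so it is in none of the counts and medians of log2 folds. Uhrf1, which recruits the maintenance methyltransferase to hemimethylated DNA (chr17:56303321-56323486, plus strand), had 24.6 FPKM in lnc57Rik KO, 10.5 in lncGM1082 KO and 11.1 in WT. Its ratio to WT was 2.22 (2.05 to 2.41) in lnc57Rik KO and 0.9497 (0.862 to 1.05) in lncGM1082 KO.

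**Figure D4:**
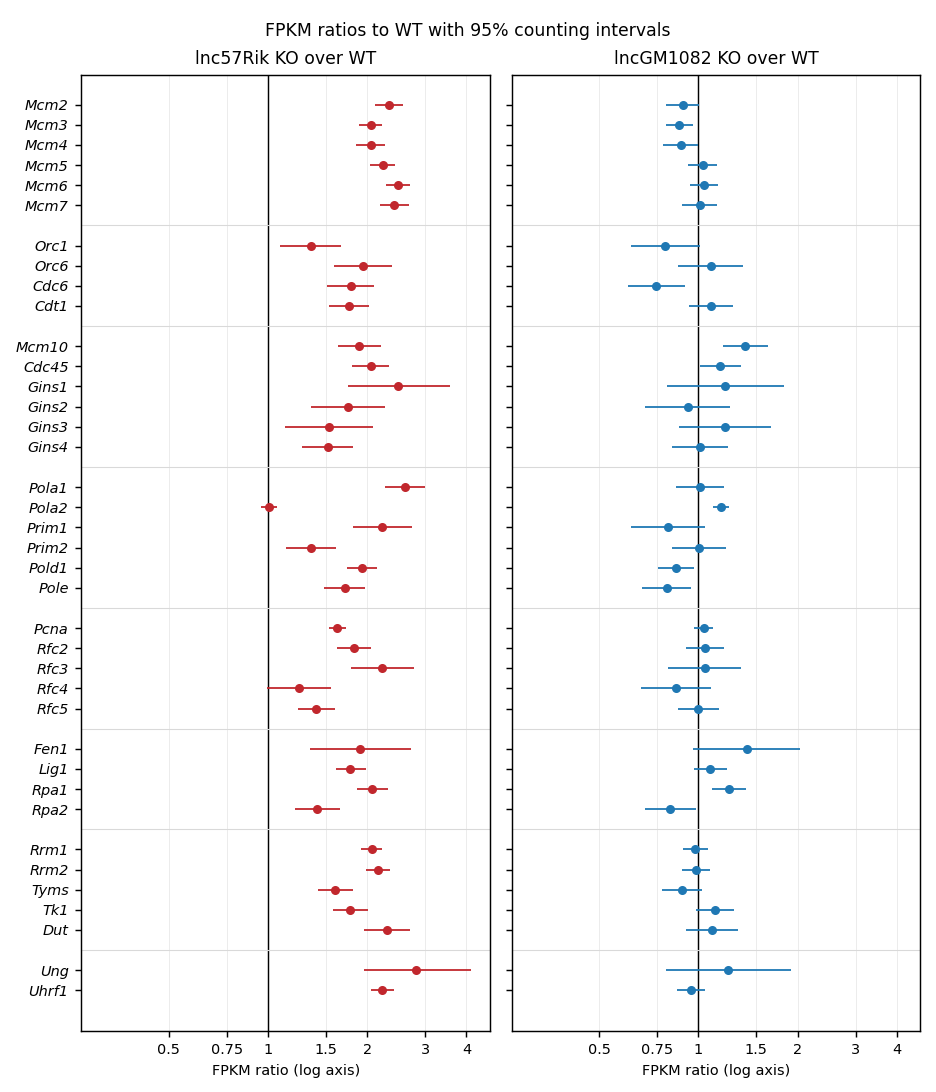
FPKM ratio to WT of the 38 DNA replication genes on a log axis, for lnc57Rik KO (left) and lncGM1082 KO (right), with bars for the exact 95% binomial interval, which covers counting error only. On the left the bars of 36 genes lie above 1, and on the right those of 4 genes lie above 1 and those of 6 below.

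Across the 37 genes the size of the difference had little relation to level or length. Spearman's rho between the lnc57Rik KO to WT ratio and the mean FPKM was 0.21, and it was 0.06 for exon length. For the lncGM1082 KO to WT ratio the values were 0.03 and -0.14. These are descriptions across genes of the same libraries.

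Genes that work beside the 38 genes were examined as 6 lists, and the median of each list was above 0 in lnc57Rik KO against WT. Of all 22202 rows, 12.7% were called higher in that comparison, which is the background for the counts of all 6 lists. Among other replisome and origin genes, 13 of 33 were called higher in lnc57Rik KO against WT, with a median log2 fold of 0.47. Tipin, a fork protection factor, had 10.01 FPKM in lnc57Rik KO, 5.71 in lncGM1082 KO and 4.80 in WT. Gmnn, the Cdt1 inhibitor geminin, had 13.2, 6.72 and 7.13 FPKM, and Pold2, a polymerase delta subunit, had 8.81, 5.395 and 4.79 FPKM. Among other nucleotide supply genes, 7 of 16 were called higher, with a median of 0.36. The largest log2 fold among them was 1.32 for Samhd1, which degrades deoxynucleotides rather than making them and had 50.9, 20.5 and 19.8 FPKM. Shmt1, a one-carbon enzyme, stood at 0.89 and Cad, the first enzyme of pyrimidine synthesis, at 0.66.

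Chromatin assembly and maintenance methylation genes had a median log2 fold of 0.49, and 7 of 14 were called higher in lnc57Rik KO against WT. Asf1b, a histone chaperone of dividing cells, had 8.90 FPKM in lnc57Rik KO, 4.00 in lncGM1082 KO and 3.77 in WT. Hells, a chromatin remodeler, stood at a log2 fold of 0.83 and Hat1, which acetylates new histone H4, at 0.82. Among E2F factors and S phase regulators, 9 of 22 were called higher, with a median of 0.45. Ccna2, the S phase cyclin A2, had 13.1, 5.95 and 6.09 FPKM, and Fbxo5, an inhibitor of the anaphase promoting complex, had 9.85, 4.34 and 4.54 FPKM. E2f8, an E2F family member that represses, had 6.94, 3.72 and 3.06 FPKM.

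S phase DNA repair genes had a median log2 fold of 0.56, and 9 of 13 were called higher in lnc57Rik KO against WT. Brca1, a factor of recombination repair, had 4.12 FPKM in lnc57Rik KO, 1.77 in lncGM1082 KO and 1.98 in WT, a log2 fold of 0.78 for lnc57Rik KO over WT. Mitosis genes had a median of 0.64, and 19 of 25 were called higher. Top2a, the topoisomerase that untangles chromosomes, had 38.1 FPKM in lnc57Rik KO, 17.8 in lncGM1082 KO and 20.4 in WT. Birc5, a subunit of the chromosomal passenger complex, stood at 0.97 and the spindle motor Kif11 at 0.85. In lncGM1082 KO against WT, the medians of the 6 lists lay between -0.09 and 0.01. No member of any of the 6 lists was called higher or lower there, against 5.93% and 4.73% of all rows. No difference between the lists was tested.

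**Figure D5:**
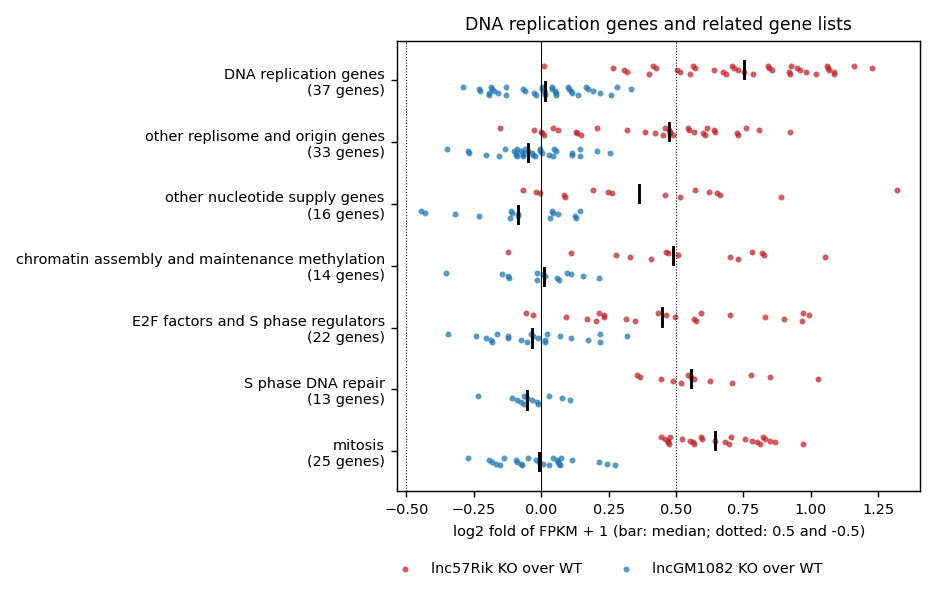
Log2 fold of FPKM + 1 against WT for each gene of the DNA replication group and of 6 related lists, red for lnc57Rik KO and blue for lncGM1082 KO, with a bar at the median and dotted lines at 0.5 and -0.5. The medians of lnc57Rik KO over WT run from 0.36 for other nucleotide supply genes to 0.75 for the replication genes, and the blue points all lie between the dotted lines.

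Markers of other cell types also differed between the libraries, and their part in the level of the replication genes was not tested. B lineage markers were far higher in lnc57Rik KO, where the 16 markers summed to 196.2 FPKM, against 18.8 FPKM in lncGM1082 KO and 13.04 FPKM in WT. All 11 of them that passed the filter had a log2 fold of at least 1 in lnc57Rik KO over WT, against 3.39% of all rows. Cd79a, which signals from the B cell receptor, had 34.3, 3.12 and 2.49 FPKM, and its partner Cd79b had 53.5, 3.06 and 2.19 FPKM. Igll1, a surrogate light chain gene of pre-B cells, had 0.719 FPKM in lnc57Rik KO and was at 0 in lncGM1082 KO and WT, and Rag2 was at 0 in lncGM1082 KO.

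The other marker lists did not all differ in 1 direction. Stem and progenitor markers, 4 of 8 past the filter, summed to 32.5 FPKM in lnc57Rik KO, 25.01 in lncGM1082 KO and 22.2 in WT. Of the 4, Flt3, Myb and Gata2 had a log2 fold above 0 in lnc57Rik KO over WT, at 0.97, 0.56 and 0.74. Kit, the stem cell factor receptor, was the 1 below 0, with 4.92, 5.71 and 5.93 FPKM. The 7 early neutrophil markers summed to 646 FPKM in lnc57Rik KO, 672 in lncGM1082 KO and 604 in WT, with a log2 fold of lnc57Rik KO over WT above 0 for 5 of them and below 0 for 2. Mpo, a primary granule enzyme, had 78.5 FPKM in lnc57Rik KO, 66.4 in lncGM1082 KO and 58.1 in WT, while Elane, neutrophil elastase and the most abundant of the 7, had 299 FPKM in lnc57Rik KO, 349.7 in lncGM1082 KO and 321 in WT. The 8 mature neutrophil markers summed to 461, 707 and 990 FPKM, and were thus lowest in lnc57Rik KO. No gene of these 3 lists was at 0 in any library. Eosinophil markers, 6 of 7 found, summed to 406 FPKM in lnc57Rik KO, 296 in lncGM1082 KO and 256 in WT, and the 6 basophil and mast cell markers to 158, 84.7 and 73.9 FPKM. Among the basophil and mast cell markers, Fcer1a was highest in lncGM1082 KO, at 1.37, 3.07 and 1.25 FPKM. Dendritic cell markers, 9 in all, summed to 161, 109 and 90.5 FPKM, and Cd209a was at 0 in both knockouts. The 10 monocyte and macrophage markers summed to 327, 412 and 501 FPKM, with Fn1, fibronectin, at 48.4, 82.2 and 215.5 FPKM making up most of the difference between lnc57Rik KO and WT. Of these 10, 4 were higher in lnc57Rik KO than in WT. They were the complement genes C1qa, C1qb and C1qc, with C1qb at 6.16 FPKM in lnc57Rik KO, 3.42 in lncGM1082 KO and 1.64 in WT, and Adgre1, the macrophage antigen F4/80, at 125.6, 102.5 and 89.1 FPKM. The 9 erythroid markers summed to 50.8 FPKM in lnc57Rik KO, 33.7 in lncGM1082 KO and 30.7 in WT, most of it from Tfrc, the transferrin receptor that dividing cells also carry, with Car1 at 0 in lncGM1082 KO and WT and Slc4a1 at 0 in lnc57Rik KO and WT. The 5 megakaryocyte markers summed to 121, 173 and 160 FPKM, and the 12 T and NK cell markers to 19.1, 16.6 and 12.7 FPKM with 2, 3 and 2 of them at 0. The 10 MDSC and myeloid markers summed to 8469 FPKM in lnc57Rik KO, 6706 in lncGM1082 KO and 9488 in WT. S100a8 and S100a9 made up most of each of these sums, with S100a8 at 2610, 1672 and 2718 FPKM. Of the 9 that passed the filter, 8 had a log2 fold below 0 in lnc57Rik KO over WT and 1 above 0. Arg1 had 262, 569 and 626 FPKM, and Nos2 had 426, 1087 and 886 FPKM. Ly6c2, the 1 above 0, had 353, 206 and 243 FPKM.

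Overlapping genes limit some of the levels, since no strand setting was given in the sources used here for the counting and reads of overlapping genes may not have been told apart. Of the 38 genes, 14 overlap an Ensembl row with more than 1 FPKM in at least 1 library. Rfc4 overlaps the opposite strand gene Eif4a2, which had 42.9 FPKM in lnc57Rik KO, 39.2 in lncGM1082 KO and 46.0 in WT. Orc6 overlaps Vps35, which had 21.8, 22.3 and 20.5 FPKM, and Cdc45 overlaps Ufd1, which had 10.1, 11.3 and 10.5 FPKM. None of these 3 neighbours was called higher in lnc57Rik KO. Mcm7, Gins2, Rfc2, Rfc5, Fen1, Lig1 and Tk1 also overlap protein coding genes of the opposite strand. Of the Ensembl neighbours, 4 had a log2 fold of at least 0.5 in lnc57Rik KO against WT. They were Lat2 beside Rfc2 at 0.62, Gm17813 beside Prim2 at 1.27, and on the same strand Gm23557 beside Pola1 at 0.96 and Gm45399 beside Rrm1 at 0.60. Lat2 had 11.8 FPKM in lnc57Rik KO, 6.93 in lncGM1082 KO and 7.29 in WT. The 21 genes past the filter with no overlapping row above 1 FPKM had a median log2 fold of 0.86 in lnc57Rik KO against WT. Their median was 0.01 in lncGM1082 KO against WT. In lnc57Rik KO 19 of the 21 were called higher, against 12.7% of all rows.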

How the data were processed

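Levels are FPKM values as deposited by the authors in 1 table, with a column for each library. The submitters' processing notes name the aligner Bowtie, version 0.12.2, and the build mm9, and say nothing of how they were applied. The table's gene positions follow GRCm38: 37 of the 38 genes had the identical position in GENCODE M21. The counting software and its strand setting were not given in the sources used here. Columns were matched to genotypes by their names, with NC taken as WT.

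Folds are log2 ratios of FPKM plus a pseudocount of 1, over 22202 rows with a mean of at least 1 FPKM. Low FPKM values were whole multiples of 1 fragment: with GENCODE exon lengths, 99.1% of values below 20 fragments came out whole within 0.05 fragments in genes with 1 transcript, and 93.4% in genes with several. The recovered fragments gave exact 95% intervals of FPKM ratios (Clopper-Pearson, scipy 1.17.1 in Python 3.11.15). Where fragments did not come out whole, as for Pola2, Cdc45 and Rfc4, the exon length used may not be the one behind the FPKM. Such fragments were rounded, and they and the interval are approximate. Fragments are not independent molecules, so intervals cover counting error only. With 1 library per genotype no p-value is given. The functions were tested on simulated data.

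The genes and lists were chosen with earlier results of these data known, and the promoter motifs after the files were seen. All 38 genes are named. From each related list the text names the 3 genes with the largest absolute log2 fold of lnc57Rik KO over WT. Some of the genes this rule picks are not reported here. Alternatives were other pseudocounts, filters and scalings, and summed rows per symbol.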

Additional observations from a re-analysis of the deposited data

How the results depend on the processing

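No paired analysis was possible because each genotype has 1 library, and for the same reason no library could be left out. No alternative turned the direction of either median that involves lnc57Rik KO. The count of replication genes called higher in lnc57Rik KO over WT is 30 of 37, and it was 16 with a pseudocount of 5, where the median log2 fold was 0.46, and 19 of 23 among rows with a mean of at least 5 FPKM. A larger pseudocount shrinks the fold of every low gene by construction, and the stricter filter tests fewer genes. With the pseudocount of 5, 4.36% of all rows were called higher and 43.2% of the replication genes. For lnc57Rik KO over lncGM1082 KO the pseudocount of 5 gave 14 genes called higher and a median of 0.42. Scaling by the median of ratios moved the median of all rows in lnc57Rik KO over WT to -0.02, against 0.07 as deposited. Under it 26 genes were called higher, Gins2, Gins4, Pole and Tyms fell under the line, and Pola2 turned below 0, as it did with a common library sum, where 28 genes were called higher. In lncGM1082 KO over WT the count was 0 under all settings run. With 1 library per genotype, differences between mice, cultures and library preparations cannot be told apart from the genotype, and a gene near 1 FPKM rests on few fragments, as Gins1, Gins3, Fen1 and Ung show.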

Other observations

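The E2F pattern was also set against the folds of the 8155 genes with a promoter window and an Ensembl row past the filter. The 395 genes with a match had a median log2 fold of 0.17 in lnc57Rik KO over WT, and the 7760 without a match one of 0.10. Without the replication genes, 382 genes had a median of 0.17. In lncGM1082 KO over WT the medians were 0.00 with and 0.01 without a match. The CHR motif was in 17 of 23 windows of the mitosis list, or 73.9%, and the E2F pattern in 2 of 23, or 8.70%. These are descriptions of the same 3 libraries.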
